A study of Homo sapiens with 23 samples.

Results

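The 10 genes described here are the unfolded protein sensors of the endoplasmic reticulum (ER) and the chaperones and quality-control factors that act with them. They were taken by gene symbol from a list of 10 names, drawn up with earlier results of these data known, and all 10 were found among the 61217 genes listed in each deposited table. The endoplasmic reticulum folds secreted and membrane proteins. When unfolded chains pile up there, they are sensed by the kinase and RNase IRE1 (gene ERN1), the kinase PERK (gene EIF2AK3) and the membrane-bound transcription factor ATF6. IRE1 splices the mRNA of the transcription factor XBP1, PERK slows translation and favours synthesis of the transcription factor ATF4, and ATF6 is cut free in the Golgi. Their shared outputs include the chaperones HSPA5 (BiP), HSP90B1 (GRP94), SDF2L1 and DNAJB9, the degradation factor HERPUD1 and the translocon-associated protein SERP1 (RAMP4).

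The study transfected a pair of established cervical carcinoma cell lines, C-33A (HPV-negative, per the labels) and CaSki (HPV-positive, labelled as metastatic), with a synthetic mimic of a microRNA or with a negative control (n#1), each at 100 nM. The microRNAs were miR-124-3p, miR-218-5p and miR-23b-3p. A mimic is a short double-stranded RNA that raises the amount of 1 microRNA far beyond what the cell makes. Polyadenylated RNA of 23 samples was sequenced. The groups were C-33A with miR-124-3p (2 samples), C-33A with miR-23b-3p, C-33A with miR-218-5p, C-33A with the control, CaSki with miR-124-3p, CaSki with miR-23b-3p, CaSki with miR-218-5p and CaSki with the control (3 samples each). The 6 tables used here each hold 1 comparison of a mimic with the control of the same line, so the 3 comparisons of a line share their control samples. The sample titles carry the replicate tags RB1, RB2 and RB3 in each group, except that C-33A with miR-124-3p has no RB1. Whether samples with the same tag form a matched block is not stated. Separate cultures are not named for the replicates in the labels, so p-values measure the spread between samples only, and that spread can be technical. Each line is 1 line of cancer cells, and nothing here shows what normal cervical cells would do.

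Each table gives a log2 fold change (mimic over control), an average log2 CPM (counts scaled to library size, over all samples of the comparison) and an edgeR p-value with its false discovery rate (FDR) over all listed genes. These are the authors' values, and the levels, SEs and intervals below were computed from them. A gene was called at an FDR under 0.05 and counted as expressed where its average reached 0 on the log2 CPM scale. A standard error (SE) was recovered from the fold change and the F score. With no values per sample in them, library depth is unknown here, and group levels were derived from the average and the fold change. Several features of the tables bear on the values below. In C-33A the tests had 183651 (miR-124-3p) or 244868 denominator degrees of freedom for most genes, that is, a spread pooled over all genes. In CaSki the medians were 31.5 with miR-124-3p, 38.2 with miR-23b-3p and 25.7 with miR-218-5p, so a gene's own spread entered. The lowest degrees of freedom that many genes shared were 4.16, 3.15 and 4.16 in the same CaSki tables. The value for miR-23b-3p, shared by 489 genes, lies under the 4 that the 6 labelled samples would leave and above the 3 that 5 samples would leave. The control levels derived from the CaSki tables of miR-124-3p and miR-218-5p differed by 0.015 to 0.019 on the log2 scale (5th to 95th percentile of 11316 genes), whereas those derived from the miR-124-3p and miR-23b-3p tables differed by -0.12 to 0.18. The sources used here do not give which samples entered the CaSki miR-23b-3p table, so its levels are not split into groups below. There were 189 genes with a log2 fold change under -8 in all 3 CaSki tables, none of them called and none of the 10 genes among them, while no C-33A gene passed that limit. Of 8 epithelial marker genes, 2 were expressed in C-33A and 8 in CaSki; of 14 markers of leukocytes, fibroblasts and endothelium, 2 were expressed in each line.

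The mature sequences of 2 of the mimicked microRNAs show the letters by which they pair with a target, with the seed (bases 2 to 8) in capitals. They come from RefSeq (GRCh38.p14), 5′ to 3′, and their seeds differ.
miR-23b-3p: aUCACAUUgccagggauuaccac
miR-218-5p: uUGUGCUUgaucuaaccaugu
The miR-23b-3p locus lies at chr9:95085265-95085287 (+ strand). miR-218-5p is made from 2 loci, chr4:20528299-20528319 (+ strand) and chr5:168768211-168768231 (- strand).

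Sites for these seeds were searched in the 3′ UTR of the longest coding transcript of each gene (GENCODE release 29, GRCh38). An 8mer pairs with bases 2 to 8 and ends in an A, and a 7mer lacks either the A or the eighth base. SERP1 was the member with the most miR-218-5p sites, 2 8mers and 1 7mer in a 3′ UTR of 2460 bases on the - strand. They are printed because SERP1 also had the lowest miR-218-5p values of the 10 genes, with the paired bases in capitals.
SERP1 7mer, chr3:150544003-150544027: actcttttgaactgaAAGCACActc
SERP1 first 8mer, chr3:150542336-150542360: gaaaaatatatagaAAGCACAAtga
SERP1 second 8mer, chr3:150542263-150542287: tcaagctcaagatgAAGCACAAttc
A miR-218-5p 8mer is present in 4.4% of 19048 such 3′ UTRs, and an 8mer or 7mer in 18.8%. ATF6, EIF2AK3 and ERN1 held 1 7mer each for miR-218-5p. For miR-23b-3p, ATF6 held 2 8mers and HSP90B1 held 1, against 8.64% of all 3′ UTRs with at least 1, and none of the other 8 genes held an 8mer or 7mer. A match of letters is a description and not a measured site of binding.
ATF6 first miR-23b-3p 8mer, chr1:161960839-161960863 (+ strand): ccttcccattctgtAATGTGAAtta
ATF6 second miR-23b-3p 8mer, chr1:161961971-161961995 (+ strand): caaagttaggagttAATGTGAAagg
HSP90B1 miR-23b-3p 8mer, chr12:103947686-103947710 (+ strand): ctgtgtggagagggAATGTGAAatt

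The promoters were searched for the elements that this stress response is known to act through. ATF6, with the factor NF-Y, is known to bind the ER stress response element (ERSE), and a shorter form (ERSE-II) is known from HERPUD1. Both were searched on both strands in RefSeq promoters of GRCh38.p14, from 250 bases before to 50 after each gene's start. The ERSE (CCAAT, 9 bases of any kind, then CCACG) was present in 0.0769% of 35097 promoters and the ERSE-II (ATTGG, 1 base of any kind, then CCACG) in 0.0541%. Of the 10 genes, HSPA5, HSP90B1, XBP1 (in 1 of its 2 promoters) and SERP1 held an ERSE, and SDF2L1 and HERPUD1 an ERSE-II; none was found in DNAJB9, ERN1, EIF2AK3 or ATF6. The match is in capitals, read along the gene's own strand, so a match on the other strand appears as its reverse complement.
HSPA5 ERSE, chr9:125241386-125241414 (- strand): cttcaCCAATCGGCGGCCTCCACGacggg
HSP90B1 first ERSE, chr12:103930211-103930239 (+ strand): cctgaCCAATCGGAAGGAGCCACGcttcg
HSP90B1 second ERSE, chr12:103930316-103930344 (+ strand): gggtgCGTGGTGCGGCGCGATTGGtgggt
XBP1 ERSE, chr22:28800598-28800626 (- strand): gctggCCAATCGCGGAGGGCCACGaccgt
SERP1 ERSE, chr3:150546705-150546733 (- strand): tcatgCGTGGAGACAGCGAATTGGtgttt
SDF2L1 ERSE-II, chr22:21642109-21642129 (+ strand): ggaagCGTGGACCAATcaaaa
HERPUD1 ERSE-II, chr16:56932020-56932040 (+ strand): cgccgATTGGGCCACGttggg

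Across the 60 values of the 10 genes in the 6 comparisons, 3 were called. SERP1 fell with miR-124-3p in both lines, and HERPUD1 rose with miR-23b-3p in CaSki. With miR-124-3p, 1 of the 10 genes was called lower in C-33A and 1 in CaSki, where 0.517% and 0.801% of all expressed genes were called lower. With miR-23b-3p in CaSki, 1 of 10 was called higher, against 5.25% of all expressed genes. By edgeR's FDR no member was called with miR-23b-3p in C-33A (0.191% of all genes called), with miR-218-5p in C-33A (0.299%) or with miR-218-5p in CaSki (0.0978%); at an unadjusted p under 0.05 there were 2 members (4.23% of expressed genes), 2 members (5.05%) and 1 member (6.85%) in the same order. The other 57 values had a deposited FDR of 0.05 or more, which leaves 8 of the 10 genes without a call. For the counts of other genes at an unadjusted p under 0.05 given further on, the shares of all expressed genes were 9.57% with miR-124-3p, 4.23% with miR-23b-3p and 5.05% with miR-218-5p in C-33A. In CaSki they were 14.7%, 29.7% and 6.85% in the same order. No comparison had more than 1 called member, so no 2 of the 6 genes that hold an ERSE or ERSE-II could be called together. Both called genes, SERP1 and HERPUD1, are among those 6. The median log2 fold change of the 10 genes was -0.08 with miR-124-3p, 0.10 with miR-23b-3p and 0.02 with miR-218-5p in C-33A, and 0.04, 0.06 and 0.04 in CaSki. Over all expressed genes the same medians were -0.004, 0.012 and -0.038 in C-33A and -0.013, 0.0004 and 0.008 in CaSki. In C-33A with miR-124-3p all 10 genes had a negative value and with miR-23b-3p 9 of 10 had a positive one; in both comparisons 7 of the 10 values were smaller than their SE.

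**Figure D1:**
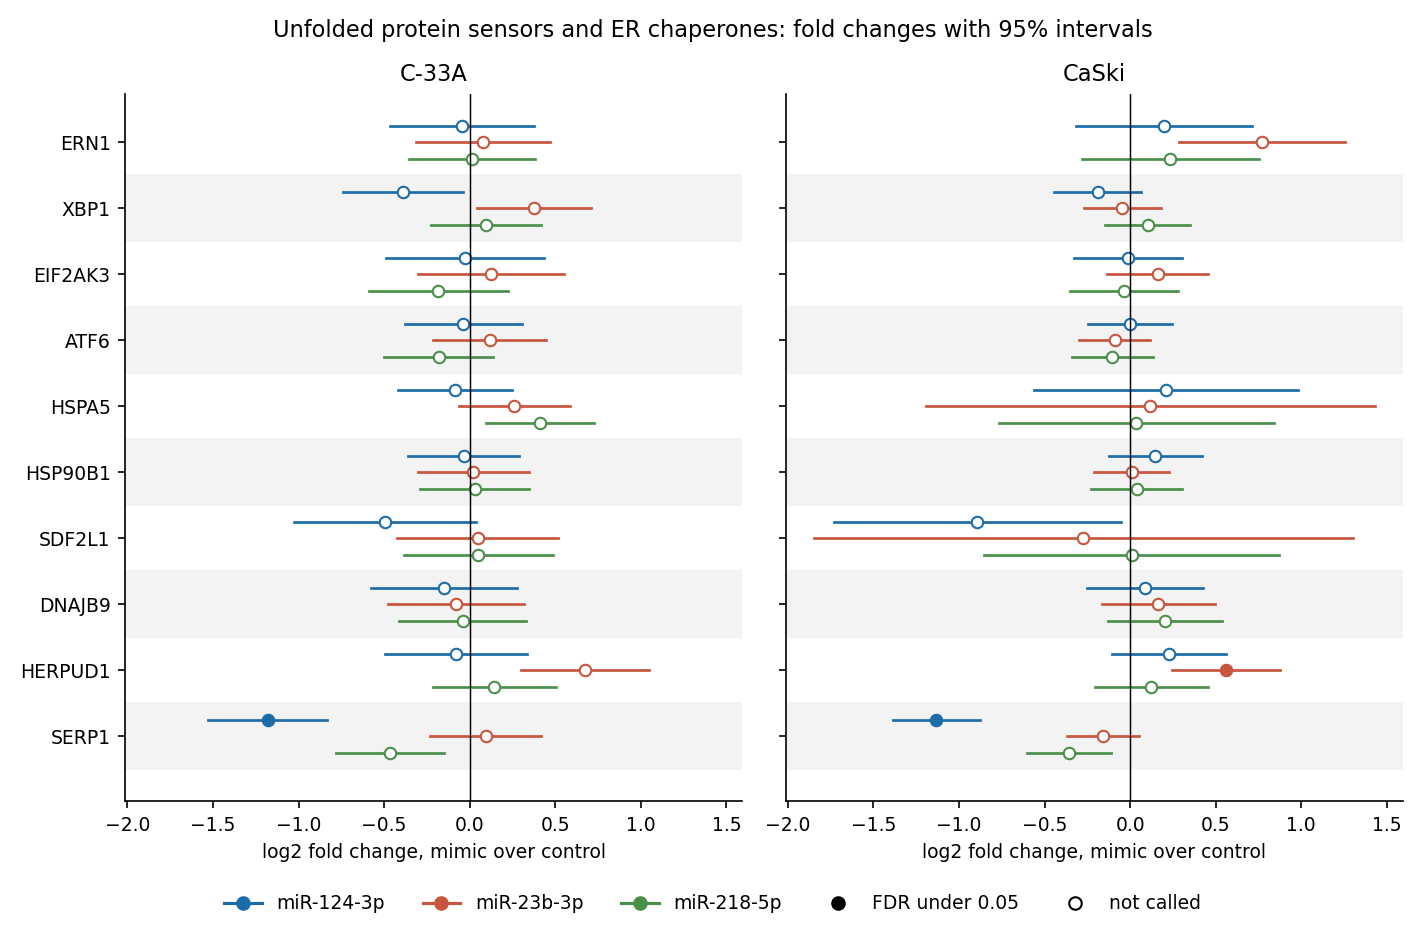
Log2 fold change (mimic over control, x axis) of the 10 genes in C-33A (left) and CaSki (right), 1 colour per mimic, with 95% intervals as lines and called values as filled points. SERP1 with miR-124-3p lies near -1.18 in C-33A and -1.13 in CaSki, HERPUD1 with miR-23b-3p near 0.67 and 0.56, and the intervals of HSPA5 and SDF2L1 are wide in CaSki.

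SERP1 (chr3:150541994-150603228, - strand, GRCh38) encodes a small tail-anchored protein of the ER membrane that sits at the Sec61 translocon and protects newly made membrane proteins during stress. With miR-124-3p its derived level was 68.5 CPM in C-33A mimic samples, against 155 CPM in C-33A control samples. In CaSki it was 88.2 CPM in mimic samples, against 193 CPM in control samples. SERP1 fell by 55.9% in C-33A and fell by 54.4% in CaSki. In such bulk samples, fewer cells with the RNA and less RNA per cell cannot be told apart. The log2 fold change was -1.18 in C-33A (SE 0.178, 95% interval -1.53 to -0.833, authors' FDR 2.2e-07, 2 mimic and 3 control samples). It was -1.13 in CaSki (SE 0.126, 95% interval -1.39 to -0.875, authors' FDR 2.86e-06, 3 samples each). The difference between the lines was -0.05 (95% interval -0.55 to 0.45), with an adjusted p of 1.00 in a normal test of the difference. The inverse-variance mean over both lines, an estimate chosen after the values had been seen, was -1.16 (SE 0.126, adjusted p = 1.47e-16), and 4.71% of 12970 genes passed as lower there.

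With miR-218-5p, SERP1 stood at 112 CPM in C-33A mimic samples and 155 CPM in C-33A control samples. In CaSki it stood at 149 CPM in mimic samples and 191 CPM in control samples. The mimic level was 0.72 times that of the control in C-33A and 0.78 times in CaSki, and neither value was called. The log2 fold change was -0.47 in C-33A (SE 0.162, 95% interval -0.78 to -0.15, the authors' unadjusted p = 0.00394, FDR 1). In CaSki it was -0.36 (SE 0.120, 95% interval -0.61 to -0.11, the authors' unadjusted p = 0.00612, FDR 1). The mean over both lines was -0.40 (SE 0.102) with an adjusted p of 0.0101 over 12902 genes. SERP1 was 1 of 10 members to pass in that direction, and 0.984% of the 12902 genes did. With miR-23b-3p SERP1 was at 0.09 in C-33A (SE 0.166) and -0.16 in CaSki (SE 0.104), and neither value was called.

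The exons of SERP1 overlap those of EIF2A and SELENOT on the opposite strand, and no source used here gives a strand setting of the counting, so reads of the overlap cannot be told apart. With miR-124-3p, EIF2A was at -0.13 in C-33A and -0.24 in CaSki, and SELENOT at -0.26 in C-33A and -0.006 in CaSki, none of them called. With miR-218-5p, EIF2A was at -0.24 in C-33A and -0.22 in CaSki, and SELENOT at -0.31 in C-33A and -0.06 in CaSki, again with no call. EIF2A, a translation initiation factor, was called with miR-23b-3p in CaSki, at -0.40 (authors' FDR 0.0172).

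The pattern of SERP1 over the 6 comparisons was closest to those of ATP6V0E1 (a V-ATPase subunit), LITAF (an endosomal membrane protein), STX10 (a SNARE), SHLD2 (a shieldin subunit) and DNAJC1 (an ER membrane J-domain protein). Likeness was the root mean square difference of the log2 fold changes among 9595 genes, and it lay between 0.146 for ATP6V0E1 and 0.229 for DNAJC1. All 5 were called lower with miR-124-3p in both lines, which follows largely from how they were picked, by nearness to SERP1's own values. ATP6V0E1 had -1.14 in C-33A and -1.37 in CaSki.

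Among 22 other genes of the translocon, the signal peptidase and the signal recognition particle and its receptor, none was called in C-33A, nor in CaSki with miR-218-5p or miR-124-3p. At an unadjusted p under 0.05, C-33A had 4 lower with miR-124-3p, 2 lower with miR-23b-3p, and 1 higher and 3 lower with miR-218-5p. CaSki had 3 higher and 2 lower with miR-124-3p, and 3 higher and 3 lower with miR-218-5p. With miR-23b-3p in CaSki, 3 of the 21 expressed genes rose and 2 fell, where 5.25% of all expressed genes were called higher and 3.84% lower, and the list median was 0.007. SRPRA, a subunit of the signal recognition particle receptor, rose (log2 fold change 1.04, SE 0.171, authors' FDR 0.000205). SEC63 (0.49) and SEC62 (0.44), which help chains into the channel, rose as well. SSR3 (-0.42), a subunit of the translocon-associated protein complex, fell, and so did SSR2 (-0.39), another subunit, named after its value was seen.

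HERPUD1 (chr16:56932048-56944863, + strand, GRCh38) encodes a membrane protein that organises the HRD1 ubiquitin ligase complex of ER-associated degradation, the route by which misfolded proteins leave the ER for the proteasome. With miR-23b-3p its derived level was 33.7 CPM in C-33A mimic samples, against 21.1 CPM in C-33A control samples. The log2 fold change was 0.67 in C-33A (SE 0.191, 95% interval 0.30 to 1.05, the authors' unadjusted p = 0.000417, FDR 0.341), which is not called. In the CaSki table, whose samples may not be the 6 labelled ones, HERPUD1 had an average log2 CPM of 4.65 and a log2 fold change of 0.56 (SE 0.155, 95% interval 0.25 to 0.87, authors' FDR 0.0392). The difference between the lines was 0.11 (95% interval -0.39 to 0.61, adjusted p = 0.876). The mean over both lines was 0.61 (SE 0.126, adjusted p = 0.000202 over 12905 genes), and 1 of 10 members passed there, where 5.68% of genes passed as higher. The other 4 HERPUD1 values lay between -0.08 (C-33A with miR-124-3p) and 0.23 (CaSki with miR-124-3p), and none was called. In the CaSki miR-23b-3p table fold changes were higher in longer transcripts (Spearman's rho of 0.44 across 10683 genes, which are not independent replicates). With that trend on length and GC content subtracted, HERPUD1 was at 0.58 (adjusted p = 0.0338).

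Of 23 other genes of ER-associated degradation, 22 were expressed. Those called were SEL1L (0.66, SE 0.103, authors' FDR 9.2e-05), the adaptor of HRD1, and SYVN1 (0.69, SE 0.189, authors' FDR 0.0362), which encodes HRD1 itself, both higher with miR-23b-3p in CaSki. That is 2 of 22 genes, in a comparison where 9.09% of all expressed genes were called in either direction. The list median in that comparison was -0.014. No value with the length and GC trend subtracted is given for SEL1L and SYVN1. None of the list was called in the other 5 comparisons by edgeR's FDR. SEL1L was positive in C-33A too, at 0.38 with miR-124-3p, 0.25 with miR-23b-3p and 0.28 with miR-218-5p. In CaSki with miR-124-3p it was at 0.44 (SE 0.126, authors' FDR 0.215). In those comparisons between 0 and 3 members of the list had an unadjusted p under 0.05.

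ERN1 (IRE1) is the sensor that splices XBP1 mRNA. In CaSki with miR-23b-3p its log2 fold change was 0.77 (SE 0.239, 95% interval 0.29 to 1.26, the authors' unadjusted p = 0.0026, FDR 0.0836), which missed the threshold. It was at 0.08 in C-33A (SE 0.200). The difference between the lines was -0.69 (95% interval -1.33 to -0.06), with an unadjusted p of 0.0325 and an adjusted p of 0.268 in the normal test. With the length and GC trend subtracted the CaSki value was 0.52 (adjusted p = 0.446). The other 4 ERN1 values lay between -0.05 and 0.24 and none was called. ERN1 had the lowest level per length of the 10 genes in both lines.

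XBP1 encodes the transcription factor that IRE1 splicing activates, and the gene counts used here do not tell the spliced mRNA from the unspliced one. With miR-124-3p XBP1 stood at 57.8 CPM in C-33A mimic samples and 75.8 CPM in C-33A control samples. With miR-23b-3p it stood at 96.5 CPM in C-33A mimic samples and 74.5 CPM in C-33A control samples. The log2 fold changes were -0.39 (SE 0.180, the authors' unadjusted p = 0.0294) and 0.37 (SE 0.170, the authors' unadjusted p = 0.0275), each with an FDR of 1. In CaSki the same mimics gave -0.19 (SE 0.124) and -0.05 (SE 0.111). The difference between the lines with miR-23b-3p was 0.42 (95% interval 0.02 to 0.82), with an unadjusted p of 0.0387 and an adjusted p of 0.287. With miR-218-5p XBP1 was at 0.10 in both lines.

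Of 8 other genes that act with IRE1, such as the tRNA ligase RTCB that joins the spliced XBP1 exons and the adaptor TRAF2, 7 were expressed. SYVN1 with miR-23b-3p in CaSki was the single call, a gene that the degradation list holds too. In that comparison 5.25% of all expressed genes were called higher. At an unadjusted p under 0.05, 2 of the 7 were higher and 2 lower there, against 29.7% of expressed genes in either direction. None was called in C-33A, where 1 value had an unadjusted p under 0.05, with miR-124-3p. None was called in CaSki with miR-124-3p (1 value with an unadjusted p under 0.05) or with miR-218-5p (0 values).

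No value of EIF2AK3 (PERK) was called. Its 6 log2 fold changes lay between -0.18 (C-33A with miR-218-5p) and 0.16 (CaSki with miR-23b-3p), and the lowest of the authors' unadjusted p-values was 0.277. Of 15 expressed genes of PERK and ATF4 output, 4 rose with miR-23b-3p in C-33A, a comparison in which 0.0657% of all genes were called higher. They were TRIB3, a pseudokinase (1.32, SE 0.180, authors' FDR 8.03e-09), CHAC1, which degrades glutathione (1.24, SE 0.191, authors' FDR 1.76e-06), DDIT3, the transcription factor CHOP (1.03, SE 0.187, authors' FDR 0.000395), and CEBPB, a transcription factor (0.92, SE 0.179, authors' FDR 0.00133). The list median was 0.57, 14 of the 15 values were positive, and 11 had an unadjusted p under 0.05 in the higher direction, against 1.93% of all genes. Of the 14 genes of the list averaging at least 2 on the log2 CPM scale, 7, these 4 among them, had degrees of freedom under 0.5 times the median in this comparison, against 16.1% of all such genes. The SEs of the 4 called genes were 1.01 to 1.02 times the median SE of genes of like level. Their degrees of freedom, from 3731 (CHAC1) to 39643.5 (TRIB3), were still so large that the p-values hardly depend on them. The list was put together with earlier results of these data known, so its direction is no independent evidence.

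In CaSki with miR-23b-3p the same list had a median of 0.002. There ATF4 itself fell (-0.63, SE 0.0996, authors' FDR 0.000113; 3.84% of all expressed genes were called lower), while VLDLR, a lipoprotein receptor (0.75), and PPP1R15B, a regulatory subunit of the phosphatase that reverses PERK's phosphorylation (0.42), rose, against 5.25% called higher. ATF4 in C-33A was at 0.57 (SE 0.166, authors' FDR 0.41). VLDLR in C-33A with miR-23b-3p was at 0.93 (SE 0.270, authors' FDR 0.41) and PPP1R15B at 0.17 (SE 0.166), neither called. With the other mimics VLDLR lay between 0.38 (C-33A with miR-124-3p) and 0.63 (C-33A with miR-218-5p) over both lines, again with no call. The difference between the lines passed for ATF4, TRIB3, CHAC1, CEBPB and DDIT3 (adjusted p between 1.63e-05 and 0.0345), and 1.7% of 12905 genes differed. No value with the length and GC trend subtracted is given for these genes. With miR-124-3p TRIB3 was the single gene of the list called in either line, and it fell: -1.01 in C-33A (SE 0.218, authors' FDR 0.00408) and -0.84 in CaSki (SE 0.178, authors' FDR 0.0243). In these comparisons 0.517% and 0.801% of all expressed genes were called lower. At an unadjusted p under 0.05, 5 of 15 were lower and 0 higher in C-33A (5.43% and 4.14% of expressed genes). In CaSki 3 were lower and 1 higher (7.16% and 7.55%). The list medians were -0.18 in C-33A and -0.11 in CaSki. None of the list was called with miR-218-5p in either line, where 4 values in C-33A and 2 in CaSki had an unadjusted p under 0.05, all of them higher, as had 1.44% and 4.23% of all expressed genes.

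**Figure D2:**
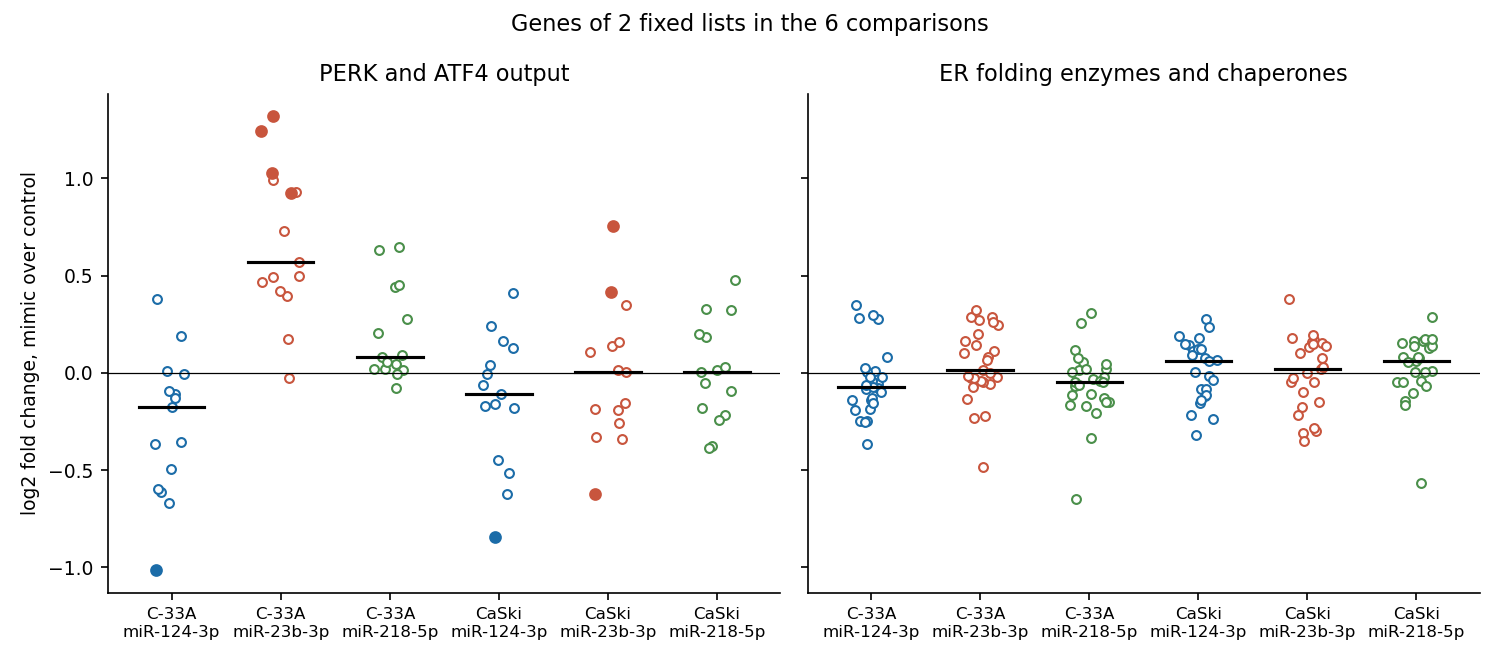
Log2 fold change (mimic over control, y axis) of the expressed genes of the PERK and ATF4 output (left) and of other ER folding enzymes and chaperones (right) in the 6 comparisons, with called genes as filled points and the list median as a bar. The left list has a median of 0.57 in C-33A with miR-23b-3p and 0.002 in CaSki with miR-23b-3p, and no gene of the right list is called.

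No value of ATF6 was called either. Its log2 fold changes lay between -0.18 (C-33A with miR-218-5p) and 0.12 (C-33A with miR-23b-3p), and the lowest of the authors' unadjusted p-values was 0.264. With miR-23b-3p, for which its 3′ UTR holds the 2 8mers printed above, it was at 0.12 in C-33A (95% interval -0.22 to 0.45) and -0.09 in CaSki (95% interval -0.30 to 0.12). With the length and GC trend subtracted the CaSki value was -0.30 (adjusted p = 0.103). Of the related membrane-bound factors and the proteases that cut them, MBTPS1, the site-1 protease that cleaves ATF6, rose in CaSki with miR-124-3p (0.65, SE 0.127, authors' FDR 0.0117) and with miR-23b-3p (0.64, SE 0.107, authors' FDR 0.0002). Those 2 comparisons share control samples, and 0.4% and 5.25% of all expressed genes were called higher in them. CREB3L2, a transcription factor released in the same way, rose in CaSki with miR-23b-3p (0.91, SE 0.160, authors' FDR 0.00048). The list medians of these comparisons were -0.21 and 0.12. None of the 6 expressed genes of the list was called in C-33A, where each mimic gave 1 or 2 values with an unadjusted p under 0.05. None was called in CaSki with miR-218-5p either, where 2 had one. MBTPS1 was among these values each time, and it was positive with every mimic in both lines. It was at 0.53 with miR-124-3p, 0.41 with miR-23b-3p and 0.43 with miR-218-5p in C-33A. In CaSki with miR-218-5p it was at 0.49 (SE 0.123, authors' FDR 0.615). ATF6B, the paralog of ATF6, is among the 189 CaSki genes with log2 fold changes under -8: it had -12.13 with miR-124-3p, -12.66 with miR-23b-3p and -12.18 with miR-218-5p, none called (unadjusted p between 0.225 and 0.302).

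HSPA5 (BiP) is the Hsp70 of the ER, which binds nascent chains and holds the sensors inactive in unstressed cells. With miR-218-5p it stood at 239.9 CPM in C-33A mimic samples and 181 CPM in C-33A control samples, a log2 fold change of 0.41 (SE 0.162, the authors' unadjusted p = 0.0113, FDR 1). With miR-23b-3p it was at 0.26 in C-33A (SE 0.166) and with miR-124-3p at -0.09 (SE 0.169). In CaSki the values were 0.21 (SE 0.299) with miR-124-3p, 0.12 (SE 0.423) with miR-23b-3p and 0.04 (SE 0.307) with miR-218-5p. None of the 6 was called. The pseudogene HSPA5P1 averaged 0.0686 to 0.107 CPM over the 6 tables, a level far under that of HSPA5.

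HSP90B1 (GRP94), the Hsp90 of the ER, had the highest level of the 10 genes and the narrowest range of log2 fold changes, between -0.04 (C-33A with miR-124-3p) and 0.15 (CaSki with miR-124-3p). With miR-23b-3p, for which its 3′ UTR holds an 8mer, it was at 0.02 in C-33A (95% interval -0.30 to 0.35) and 0.008 in CaSki (95% interval -0.21 to 0.23). The pseudogene HSP90B2P averaged 0.729 to 2.58 CPM. DNAJB9 (ERdj4), a J-domain partner of BiP, lay between -0.15 and 0.20, and the lowest of the authors' unadjusted p-values was 0.218. Exons of DNAJB9 overlap the opposite-strand gene THAP5, which was called with miR-218-5p in C-33A (-0.73, authors' FDR 0.0178), where DNAJB9 was at -0.04 (SE 0.189).

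SDF2L1 is a small ER protein that keeps clients of BiP soluble. With miR-124-3p it stood at 6.09 CPM in C-33A mimic samples and 8.59 CPM in C-33A control samples. In CaSki it stood at 9.5 CPM in mimic samples and 17.6 CPM in control samples. The log2 fold changes were -0.50 in C-33A (SE 0.271, the authors' unadjusted p = 0.0676) and -0.89 in CaSki (SE 0.351, 95% interval -1.73 to -0.05, the authors' unadjusted p = 0.0401), both with an FDR of 1. The mean over both lines was -0.61 (SE 0.230, adjusted p = 0.0803), which missed the threshold. With the other mimics SDF2L1 lay between -0.27 and 0.05.

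Among the 10 genes, HSPA5 and SDF2L1 had the largest SEs in CaSki for their level. The SE of HSPA5 was 2.35, 4.12 and 2.53 times the median SE of genes of like level (within 0.5 on the log2 CPM scale), in the order miR-124-3p, then miR-23b-3p, then miR-218-5p. That of SDF2L1 was 1.9, 3.03 and 2.08 times that median. In the same order, 94.1%, 96.2% and 94.8% of genes of like level had a smaller SE than HSPA5. For SDF2L1 the shares were 92.2%, 93.9% and 93.7%, so some genes of like level had larger SEs still. Their recovered degrees of freedom lay between 3.15 and 6.68, against the medians of 25.7 to 38.2, and 9.9% to 13.3% of the genes averaging at least 2 on the log2 CPM scale had degrees of freedom under 0.5 times the median. The other 8 genes had SEs close to those of their level. Which sample of CaSki is high or low for HSPA5 and SDF2L1 is not shown in these tables. In C-33A the SEs of HSPA5 and SDF2L1 were 0.998 to 1.01 times the median SE of genes of like level. The spread there was pooled over genes for most genes, so the spread of their own samples enters little. Some genes of C-33A had a wider SE all the same. ATF5, of the PERK and ATF4 output, had 3.23 times the median of its level with miR-218-5p.

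**Figure D3:**
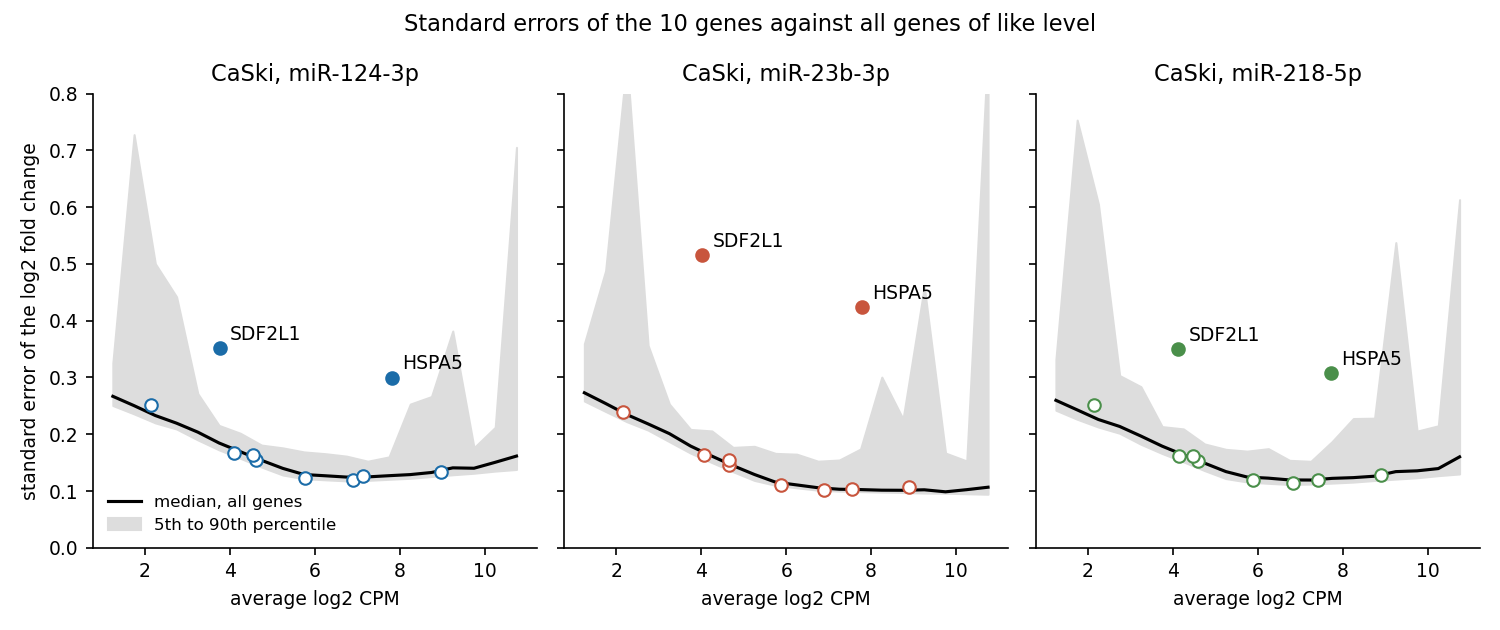
SE of the log2 fold change (y axis, which ends at 0.8) against the average log2 CPM (x axis) in the 3 CaSki comparisons, with the median of all genes as a line, the 5th to 90th percentile as a grey band that runs past the axis in places, and the 10 genes as points. HSPA5 and SDF2L1 (filled, named) lie at SEs between 0.299 and 0.516, above the band, and the others lie near the line.

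None of 28 other ER folding enzymes and chaperones, among them the calnexin CANX, the lectin CALR, the disulfide isomerases P4HB and PDIA4 and the exchange factor HYOU1, was called by edgeR's FDR in any of the 6 comparisons. In C-33A 27 were expressed, and 1 had an unadjusted p under 0.05 with miR-124-3p, 1 with miR-23b-3p and 2 with miR-218-5p. In CaSki 25 were expressed, and 1, 3 and 1 had one. With miR-218-5p, TXNDC5 was among these in both lines and is named after its values were seen. It was at -0.65 in C-33A (SE 0.182, the authors' unadjusted p = 0.000359, FDR 0.265). In CaSki it was at -0.57 (SE 0.142, the authors' unadjusted p = 0.000477, FDR 0.595). The medians lay between -0.07 (C-33A with miR-124-3p) and 0.06 (CaSki with miR-218-5p).

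For no mimic did any of the 10 genes differ between C-33A and CaSki at an adjusted p under 0.05 in the normal test, where 0% of genes differed with miR-124-3p, 1.7% with miR-23b-3p and 0% with miR-218-5p. At an unadjusted p under 0.05, 2 members (ERN1 and XBP1) differed with miR-23b-3p, where 15.6% of genes did. None did with miR-124-3p (2.51% of genes) or with miR-218-5p (1.56%). The intervals of the differences were wide for HSPA5 and SDF2L1. For SDF2L1 with miR-23b-3p the interval ran from -0.89 to 1.53.

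The levels in control cells of the 2 lines came from tables normalized separately and are a description without a test. Per kb of exon, the order on the log2 CPM scale in C-33A was HSP90B1 (7.01), HSPA5 (5.53), SERP1 (4.75), XBP1 (4.64), ATF6 (3.48), SDF2L1 (2.96), DNAJB9 (2.78), HERPUD1 (2.05), EIF2AK3 (1.23) and ERN1 (0.85). In CaSki HSP90B1 (6.66), HSPA5 (5.74) and SERP1 (5.06) again led, and ERN1 (-1.40) was last. Without the length, ERN1 was at 19.5 CPM in C-33A and 4.11 CPM in CaSki, a 4.75-fold difference and the widest of the 10 genes. SDF2L1 was at 8.55 CPM in C-33A and 17.5 CPM in CaSki, and EIF2AK3 at 12.7 CPM in C-33A and 24.5 CPM in CaSki. HERPUD1 was at 21.4 CPM in both. Neighbours in this order, such as SERP1 and XBP1 in C-33A, cannot be ordered beyond their spread, since no spread per sample is given for a level.

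**Figure D4:**
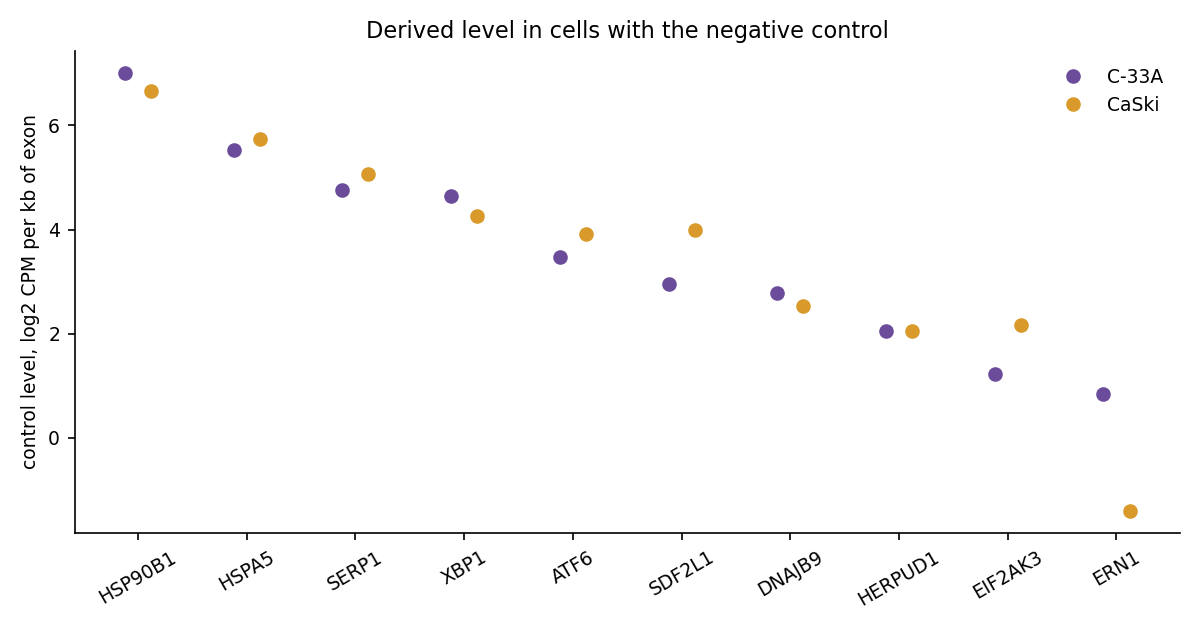
Level of the 10 genes in control cells, in log2 CPM per kb of exon (y axis), derived from the deposited averages and fold changes, for C-33A (left point of each pair) and CaSki (right point). HSP90B1 is highest (7.01 and 6.66) and ERN1 lowest (0.85 and -1.40), and the widest gap between the lines is that of ERN1.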

How the data were processed

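PolyA RNA sequencing of C-33A and CaSki was mapped to GRCh38 (hg38) with STAR 2.7.10b after FastQC 0.73, counted with featureCounts 2.0.3 and compared with edgeR 3.36.0, per the submitters' processing notes. Per the file headers, each of the 6 deposited tables gives a log2 fold change and an average log2 CPM, an F score, and a p-value with an FDR for 61217 genes, unfiltered. The 10 genes and the lists of other genes were chosen with earlier results of these data known. SEs are the log2 fold change divided by the square root of F; intervals (95%) use the degrees of freedom recovered from F and p. Lines were compared by a two-sided normal test with SEs recovered from p. It was Benjamini-Hochberg adjusted over the genes expressed in both tables (average at or above 0 on the log2 CPM scale). The test was run on simulated data with normal noise of those same SEs. Such a run checks the calculation only and cannot show whether the SEs are right for these data. The inverse-variance mean over both lines was added after the data were seen. Control levels of CaSki leave out the miR-23b-3p table, a choice also made after the data were seen. Named list genes are up to 4 called members per list and comparison with the lowest p; 5 genes were named for likeness to SERP1. Alternatives changed the threshold, the genes adjusted over, the centring, the length and GC trend and the SE. Python 3.11.15, pandas 2.3.3, scipy 1.17.1 and statsmodels 0.14.6 were used. The depth per sample is unknown. No values per sample were used here.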

Additional observations from a re-analysis of the deposited data

Results flagged for a closer look

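After miR-23b-3p, 5 genes of the PERK and ATF4 output differed between the lines at an adjusted p under 0.05 (normal test, adjusted over 12905 genes). In that test 1.7% of the 12905 genes differed. The list was put together with earlier results of these data known. The C-33A errors rest mainly on a spread pooled over genes, so the spread of each gene's own samples hardly enters them. The differences, C-33A minus CaSki on the log2 scale, were 1.197 for ATF4 (0.57 in C-33A, -0.63 in CaSki, adjusted p = 3.55e-05), 1.472 for TRIB3 (1.32 in C-33A, -0.15 in CaSki, adjusted p = 1.63e-05) and 1.573 for CHAC1 (1.24 in C-33A, -0.33 in CaSki, adjusted p = 0.000748). They were 1.179 for CEBPB (0.92 in C-33A, -0.26 in CaSki, adjusted p = 0.000231) and 1.013 for DDIT3 (1.03 in C-33A, 0.01 in CaSki, adjusted p = 0.0345). In C-33A, TRIB3, CHAC1, CEBPB and DDIT3 had degrees of freedom of 3731 to 39643.5, under 0.5 times the median but still large. Their SEs there were 1.01 to 1.02 times the median of genes of like level. The CaSki table may lack a labelled sample, and the part of that in these differences was not tested. With miR-23b-3p, Spearman's rho of fold change with transcript length was 0.44 in CaSki and -0.08 in C-33A. The part of this trend in these differences was not tested either. None of the 10 sensors and chaperones differed in the same test.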

How the results depend on the processing

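The falls of SERP1 with miR-124-3p in both lines and the rise of HERPUD1 with miR-23b-3p in CaSki kept their direction and their call at an FDR under 0.1, with adjustment over the genes averaging at least 0 or at least 2 on the log2 CPM scale, with centring on the median, with the length and GC trend subtracted and with the SE from F. With miR-23b-3p in CaSki the count of called members was 2 instead of 1, ERN1 being added, at an FDR under 0.1, with adjustment over genes at 0 or more, over genes at 2 or more, and with the SE from F. The count of called genes in the pathway lists for CaSki with miR-124-3p was 4 instead of 2 with adjustment over genes at 0 or more; with miR-23b-3p in CaSki it was 18 instead of 12, and 17 at an FDR under 0.1, and in C-33A 6 instead of 4; fewer genes are then adjusted over. Centring moved the 60 member values by -0.03 to 0.04 and turned the sign of 5; the length and GC trend moved them by -0.25 to 0.38 and turned 8; no called value turned. The values over both lines stayed called with the trend subtracted (-1.15 for SERP1 with miR-124-3p, 0.61 for HERPUD1 with miR-23b-3p and -0.41 for SERP1 with miR-218-5p). No paired analysis was possible because the tables used here hold no values per sample; for the same reason leaving out a replicate and DESeq2 were not run, and what depth limits is unknown.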
